A study of Mus musculus with 6 samples.

Results

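T cell anergy factors were followed as a set of 9 genes: the transcription factor genes Egr2, Egr3 and Nfatc1, the ubiquitin ligase genes Cblb, Itch and Rnf128, the diacylglycerol kinase genes Dgka and Dgkz, and the stress-response gene Ndrg1. The set was listed by name, with earlier results of these data known, and all 9 were found among the 47729 genes of the count table. Of these 9, 8 passed the filter on low counts and were tested, and Rnf128 did not. RNA came from splenic CD4 T cells of mice, 6 samples in all. The 2 WT samples were wild type, mature naive cells sorted as CD3+CD4+CD25-CD45RBhi. The 2 ON and 2 OFF samples came from RBPJind animals, and their gate, CD3+CD4+CD25-CD45RBint, took immature naive cells. RBPJ is the DNA-binding partner of the Notch receptors, and the labels describe it as induced by doxycycline (Dox), with recent thymic emigrants responsive to Notch in ON and unresponsive in OFF during maturation. ON mice drank Dox water for 4 weeks. OFF mice drank it for 3 weeks, and then had 1 week without it while their cells matured in the periphery. All groups carry the treatment label Dox. The labels name no strain, age, pooling or promoter, and no separate animals behind the 2 samples of a group, so p-values measure the spread between these samples, which may be technical.

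Anergy is a lasting unresponsive state that a T cell enters when its receptor is engaged without costimulation. Calcium then activates NFAT without its partner AP-1, and NFAT turns on Egr2 and Egr3, which in turn raise genes that blunt later receptor signals. Among these are the ubiquitin ligases Cbl-b, Itch and GRAIL (the product of Rnf128), which mark signalling proteins for degradation or re-routing, and the diacylglycerol kinases, which remove the lipid messenger that drives Ras and protein kinase C. Ndrg1 is a further factor linked to anergy that costimulation holds down. Newly exported T cells are known to be tuned for tolerance before they mature.

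Gene counts per library ranged from 17025551 to 19319183, and unaligned reads made up at most 14.8% of either ON library and at least 18.8% of the other 4. Genes with a count numbered 30592 to 33138 (WT), 28288 to 29456 (ON) and 24210 to 25061 (OFF). Levels are counts scaled to library size by TMM (CPM), and a gene is said to be called where edgeR's quasi-likelihood test gave a Benjamini-Hochberg adjusted p under 0.05 over all 15780 tested genes. Rbpj stood at 98.2 and 79.6 CPM in ON, 29.8 and 31.7 in OFF, and 36.1 and 35.3 in WT. The labelled cell type was checked with T cell genes. Cd4 lay between 604 and 702 CPM and Cd3e between 307 and 427 in the 6 libraries. Less steady were Cd28, at 109 to 233 CPM, Trac, at 226 to 419, and Cd3g, at 1060 in ON 2 and 447 to 534 elsewhere. Of the 8 CD4 T cell markers, 1 was called higher and 1 lower in ON against WT, beside 9.68% and 5.16% of all tested genes. Cd8a lay at 5.85 CPM or below, and Cd8b1 between 11.1 and 17.9. In these bulk samples fewer cells of a type and less RNA per cell cannot be told apart.

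None of the 8 tested members passed the threshold between OFF and ON. Against mature WT cells the 3 transcription factor genes and Ndrg1 were higher in OFF, and Egr2 and Nfatc1 were higher in ON. Of the wider lists described below, Dtx1 was called lower and Nrgn and Tle4 higher in OFF than in ON. Between OFF and ON edgeR called 0 of the 8 tested members, against 1.03% of all tested genes (0.602% higher, 0.425% lower). Without adjustment 2 had a p under 0.05, Egr3 and Cblb, against 19.1% of all genes, and DESeq2 called 1, Egr3, while limma-voom called 0. All 8 had a log2 fold change above 0 with a median of 0.26, where 50.1% of all tested genes lay above 0 and the median of all was 0.00. This direction rested on single libraries for 3 of them, since the log2 fold change was -0.033 for Itch without ON 2, -0.033 for Dgka without OFF 1 and -0.027 for Dgkz without ON 1. The libraries of the groups did not overlap for 4 of the 8, against 46.7% of all tested genes. The 10 B cell markers also differed in that comparison, with a median log2 fold change of 1.00, 9 above 0 and 8 at an unadjusted p under 0.05, though edgeR called none after adjustment. Their part in the levels of the anergy factors was not tested.

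In the comparisons with WT, genotype, sort gate and maturity differ together and cannot be told apart. The labels give no weeks of Dox for WT, so any difference in Dox history cannot be told apart from these either. Against WT, ON had 2 of 8 members called, both higher. Of all tested genes 14.8% were called in that comparison, 9.68% higher and 5.16% lower. OFF had 4 of 8 called against WT, all higher, where 6.83% of all genes were called, 4.70% higher and 2.14% lower. Both comparisons share the WT libraries. The libraries did not overlap for 8 of 8 members in either comparison, against 59.9% of all tested genes for ON over WT and 55.7% for OFF over WT. The median log2 fold change of the members was 0.30 for ON and 0.51 for OFF against WT, beside -0.02 and 0.01 for all tested genes.

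**Figure D1:**
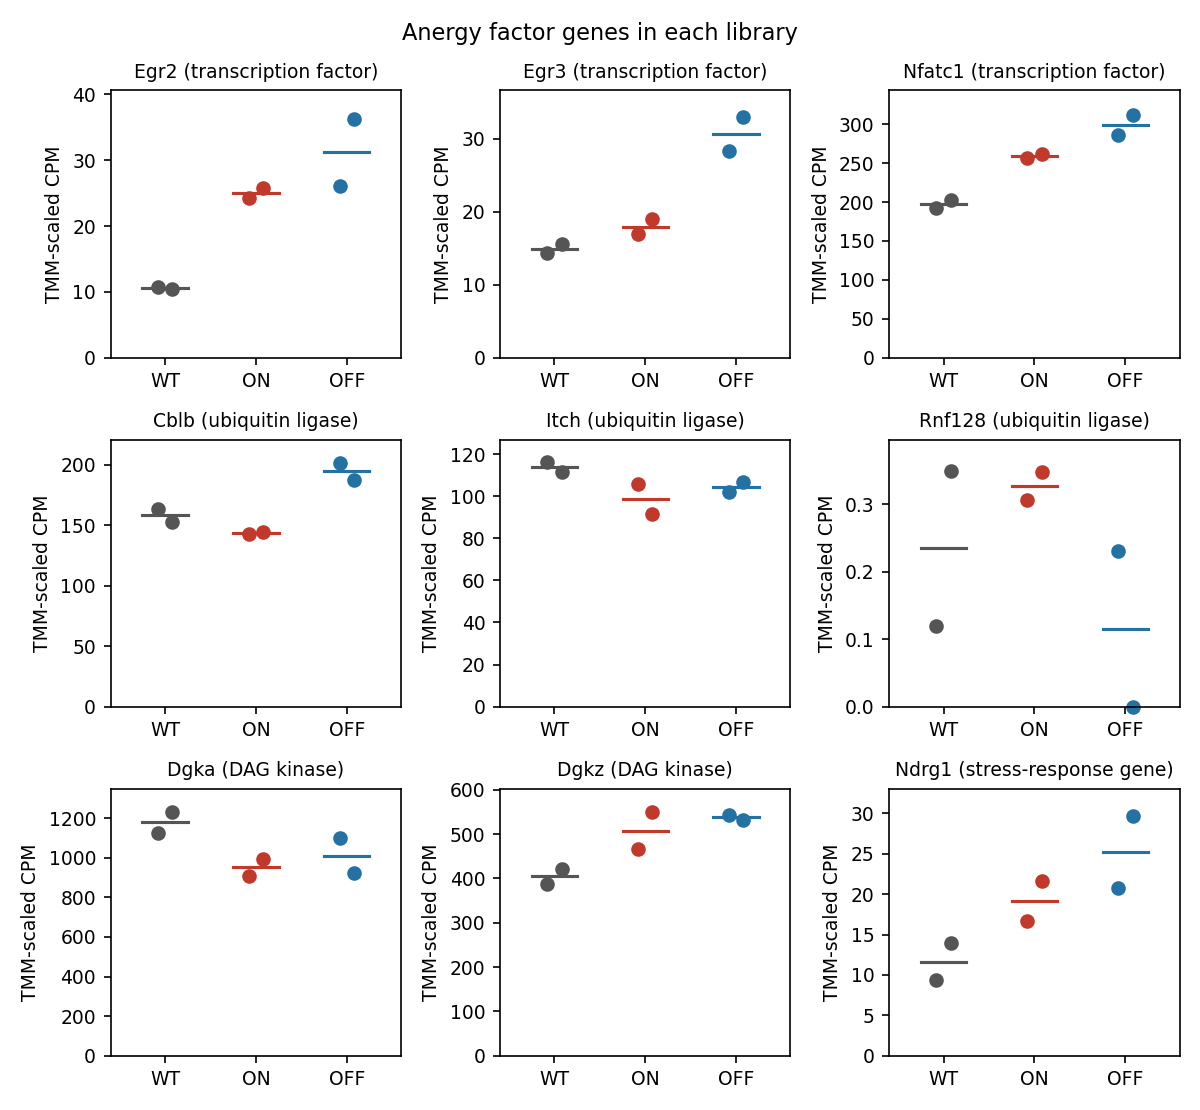
TMM-scaled CPM (y axes, from 0) of each of the 9 anergy factor genes in WT, ON and OFF. Each point is 1 library and each line the mean of the 2; Egr2, Egr3, Nfatc1 and Ndrg1 are lowest in both WT libraries, and Rnf128 stays below 0.4 CPM.

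Egr2 encodes the zinc finger factor at the centre of the anergy program (ENSMUSG00000037868; GRCm38 chromosome 10, 67535475 to 67542188, plus strand). Its levels were 10.8 and 10.5 CPM (WT), 24.3 and 25.7 (ON) and 26.1 and 36.3 (OFF). Both WT libraries lay far below the other 4, and the ON and OFF pairs lay close together with OFF 2 alone above 30. Egr2 rose 2.36-fold in ON against WT (log2 fold change 1.24 ± 0.19, SE; edgeR adjusted p = 0.00332) and 2.94-fold in OFF against WT (1.55 ± 0.19; edgeR adjusted p = 0.00168). The call in OFF held with each library left out in turn (edgeR adjusted p up to 0.0296), and the call in ON was lost without WT 2 alone (edgeR adjusted p = 0.0504). Between OFF and ON the log2 fold change was 0.32, with a 95% interval of -0.07 to 0.70 (edgeR adjusted p = 0.348), and it was 0.042 without OFF 2.

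The 250 bases before the start of the principal Egr2 transcript are printed here because Egr2 showed the largest difference from WT among the members. They were read from RefSeq's promoter table (GRCm38.p6, chr10:67537619-67537868, plus strand). GENCODE M21 places no exon of Egr2 in this window, although a longer transcript starts further upstream. Windows of Rnf128, the member near 0 counts, and Dgka, the most abundant member per kilobase, are set beside it (chrX:139610370-139610619, plus strand, and chr10:128744077-128744326, minus strand). Capitals mark matches on either strand to 6 motifs.
Egr2: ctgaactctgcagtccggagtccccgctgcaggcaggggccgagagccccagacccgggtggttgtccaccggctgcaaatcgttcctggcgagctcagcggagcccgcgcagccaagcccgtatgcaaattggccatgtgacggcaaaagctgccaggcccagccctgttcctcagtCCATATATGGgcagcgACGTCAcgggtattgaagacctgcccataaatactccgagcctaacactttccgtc
Rnf128: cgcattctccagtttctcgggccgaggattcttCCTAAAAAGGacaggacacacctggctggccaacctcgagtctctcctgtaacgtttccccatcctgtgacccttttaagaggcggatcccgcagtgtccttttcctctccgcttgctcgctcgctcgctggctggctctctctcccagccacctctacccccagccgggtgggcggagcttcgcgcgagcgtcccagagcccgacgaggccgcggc
Dgka: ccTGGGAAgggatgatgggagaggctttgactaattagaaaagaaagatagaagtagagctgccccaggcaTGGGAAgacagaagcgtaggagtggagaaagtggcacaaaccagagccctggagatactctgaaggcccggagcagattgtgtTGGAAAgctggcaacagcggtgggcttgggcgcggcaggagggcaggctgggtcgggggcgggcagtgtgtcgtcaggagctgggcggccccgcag

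The motifs were the CArG box bound by serum response factor, the cyclic AMP response half-site TGACGT, the AP-1 site TGANTCA, the NFAT core TGGAAA, the RBPJ core TGGGAA, and the EGR site GCGTGGGCG or GCGGGGGCG. The Egr2 window held 1 CArG box, from base 72 to base 63 before the start site, and 1 cyclic AMP half-site, from base 56 to base 51. Of all 32851 windows in the table, cut to the same length, 1.47% held a CArG box and 6.47% a cyclic AMP half-site. The Rnf128 window also held 1 CArG box, at bases 217 to 208. The Dgka window held the RBPJ core at 2 places and the NFAT core at 1, motifs found in 21.6% and 18.6% of all windows. AP-1 sites (6.75% of windows) and EGR sites (3.06%) were in none of the 3. A match is a run of letters and not a measured binding site. Windows were listed for 5 of the 9 members, and those of Cblb and Dgkz overlap exons in GENCODE and are not printed.

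Egr3, the close relative that acts with Egr2 (ENSMUSG00000033730; chromosome 14, 70077203 to 70082614, plus strand), had 14.3 and 15.5 CPM (WT), 16.9 and 18.9 (ON) and 28.2 and 32.9 (OFF). The step was between ON and OFF, and WT and ON lay close together without overlap. Against WT, Egr3 rose 2.05-fold in OFF (log2 fold change 1.04 ± 0.16, SE; edgeR adjusted p = 0.00528), a call lost without WT 1 (0.0796) or WT 2 (0.0551). In ON the log2 fold change against WT was 0.27, with a 95% interval of -0.09 to 0.62 (edgeR adjusted p = 0.290). Of OFF over ON it was 0.77 ± 0.15, with a 95% interval of 0.43 to 1.11, but its edgeR adjusted p of 0.0524 missed the threshold. DESeq2 called it (adjusted p = 0.0142), and limma-voom did not. In that comparison Egr3 was the gene of rank 165 by p, and 162 genes were called.

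Nfatc1 encodes an NFAT factor that is itself induced by receptor signals (ENSMUSG00000033016; chromosome 18, 80606205 to 80713071, minus strand). It stood at 192 and 203 CPM (WT), 257 and 262 (ON) and 286 and 312 (OFF), so that the 3 groups followed one another without overlap. It rose 1.31-fold in ON against WT (log2 fold change 0.39 ± 0.11, SE; edgeR adjusted p = 0.0452) and 1.52-fold in OFF against WT (0.60 ± 0.11; edgeR adjusted p = 0.0160). The call in ON was lost without WT 1 (adjusted p = 0.308), WT 2 (0.213) or ON 2 (0.0717), with upper quartile scaling (0.0846), without the filter (0.0575) and with protein-coding genes only (0.0549). The call in OFF was lost without WT 1 (0.194), WT 2 (0.101) or OFF 2 (0.112). For OFF over ON the log2 fold change of 0.21 had a 95% interval of -0.05 to 0.46.

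Cblb encodes the ligase that raises the threshold for costimulation (ENSMUSG00000022637; chromosome 16, 52031225 to 52208048, plus strand). Its levels were 164 and 153 CPM (WT), 143 and 144 (ON) and 202 and 187 (OFF). OFF was highest and ON lowest, and no libraries of different groups overlapped. Between OFF and ON the log2 fold change was 0.44 ± 0.11 (SE), with a 95% interval of 0.19 to 0.69, and it was not called (edgeR adjusted p = 0.0938). Against WT it was -0.14 ± 0.11 in ON and 0.30 ± 0.11 in OFF, neither called (edgeR adjusted p = 0.440 and 0.153).

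Itch encodes a HECT ligase that acts on phospholipase C and protein kinase C (ENSMUSG00000027598; chromosome 2, 155133509 to 155226855, plus strand), and its levels ran from 91.3 CPM in ON 2 to 116 in WT 1. WT had 116 and 111 CPM, ON 106 and 91.3, and OFF 102 and 107. ON and OFF overlapped, and both WT libraries lay above the other 4. No comparison called it, and the 95% interval of its log2 fold change was -0.48 to 0.06 for ON over WT, -0.40 to 0.14 for OFF over WT and -0.19 to 0.35 for OFF over ON.

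Rnf128, the gene of GRAIL (ENSMUSG00000031438; chromosome X, 139563316 to 139673145, plus strand), was at the limit of detection in all groups. It had 2 and 6 counts (WT), 6 and 7 (ON) and 4 and 0 (OFF). The 0 in OFF 2 allows up to 3 counts, or 0.180 CPM, by counting error alone. Differences between groups were not detectable at this depth, and without the filter its edgeR adjusted p was 0.804 for ON over WT, 0.690 for OFF over WT and 0.669 for OFF over ON.

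Dgka encodes the alpha kinase, which clears diacylglycerol at the T cell synapse (ENSMUSG00000025357; chromosome 10, 128720134 to 128744855, minus strand). It was counted at 1128 and 1234 CPM (WT), 909.8 and 996 (ON) and 1099.6 and 924 (OFF). WT lay above all other libraries, and the ranges of ON and OFF overlapped. The log2 fold change against WT was -0.31 ± 0.13 (SE) in ON and -0.22 ± 0.13 in OFF, and neither was called (edgeR adjusted p = 0.148 and 0.372). OFF and ON differed by 0.09, with a 95% interval of -0.21 to 0.38. The exons of Dgka overlap those of Pmel on the other strand by 105 bases, and Pmel had at most 35 counts in a library, against at least 15374 for Dgka.

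Dgkz encodes the zeta kinase, the other main brake on diacylglycerol in T cells (ENSMUSG00000040479; chromosome 2, 91932824 to 91975864, minus strand). Its 388 and 422 CPM in WT lay below the 466 and 550.1 in ON and the 543 and 532 in OFF. OFF fell within the range of ON. The log2 fold change against WT was 0.33 ± 0.13 (SE) in ON and 0.41 ± 0.13 in OFF, not called by edgeR (adjusted p = 0.113 and 0.0860). Whether Dgkz was called depended on single libraries, since it was called in ON without ON 1 and in OFF without ON 1 or ON 2. The ON libraries are not part of OFF against WT, but share its estimate of the spread. With 1 library left out, the log2 fold change against WT ran from 0.23 to 0.46 in ON and from 0.36 to 0.50 in OFF. OFF and ON differed by 0.08, with a 95% interval of -0.20 to 0.36. The exons of Dgkz overlap those of Gm9821 on the other strand by 222 bases. Gm9821 had at most 12 counts in a library, against at least 6485 for Dgkz.

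Ndrg1 (ENSMUSG00000005125; chromosome 15, 66929318 to 66969640, minus strand) was counted at 9.39 and 13.9 CPM (WT), 16.7 and 21.7 (ON) and 20.8 and 29.6 (OFF). WT lay below the other 4 libraries, while ON and OFF overlapped and all 3 pairs were widely spread. It rose 2.16-fold in OFF against WT (log2 fold change 1.11 ± 0.24, SE; edgeR adjusted p = 0.0288). The call was lost without WT 1 (adjusted p = 0.217), WT 2 (0.0565) or OFF 2 (0.162) and with limma-voom (0.0520). In ON the log2 fold change against WT was 0.72 ± 0.24 and was not called (edgeR adjusted p = 0.0785), although it was without OFF 1 (0.0467) or OFF 2 (0.0416) and with DESeq2 (0.0467). From ON to OFF the difference of 0.39 had a 95% interval of -0.13 to 0.91. Antisense genes cover 419 and 137 bases of its exons and had at most 12 counts in a library, against at least 157 for Ndrg1.

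**Figure D2:**
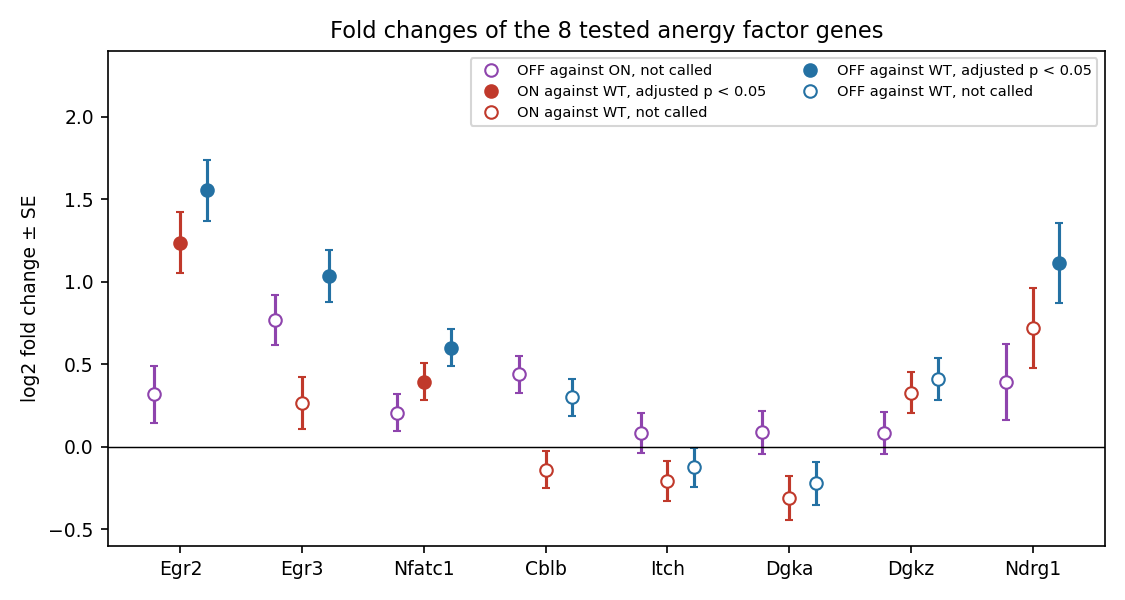
Log2 fold change with its SE (y axis) of the 8 tested members in the 3 comparisons, from the edgeR fit of all 6 libraries. Filled points were called at an adjusted p under 0.05: Egr2 and Nfatc1 in ON against WT, and Egr2, Egr3, Nfatc1 and Ndrg1 in OFF against WT, while all points of OFF against ON are open.

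Levels of different genes are compared per kilobase of exon (RPKM, from the TMM-scaled CPM). Dgka was the most abundant member, with means of 248 ± 15.9 RPKM in WT, 200.1 ± 12.7 in ON and 212 ± 26.1 in OFF (SD, n = 2), or percentiles 99.2, 99.0 and 99.1 of the tested genes. Dgkz followed at 64.6 ± 3.82, 81.0 ± 9.51 and 85.8 ± 1.29 RPKM in the same order of groups. Nfatc1 had 26.4 to 40.0 RPKM by group mean, Cblb 13.7 to 18.6, and Itch 10.2 to 11.7. Each of these 5 genes kept its place in all 3 groups, with no overlap between neighbours in the order. Egr2 and Egr3 stood near the middle of all tested genes in WT, at percentiles 50.03 and 51.6, and Egr2 was at percentile 68.7 in ON and 73.8 in OFF. Ndrg1 came next, with means of 1.77, 2.91 and 3.82 RPKM in WT, ON and OFF. Rnf128 was last, at 0.0943 RPKM or below by group mean.

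The balance within functional pairs is given as the ratio of RPKM in each library, as a description without a test. Egr2 stood at 0.977 and 0.874 times Egr3 in WT, 1.86 and 1.76 times in ON, and 1.20 and 1.43 times in OFF. Egr3 was thus the higher of the pair in both WT libraries and Egr2 in the other 4, with the highest ratio in ON. In OFF the means of Egr2 and Egr3 (9.18 ± 2.12 and 6.94 ± 0.752 RPKM) differed by about the SD of Egr2. Dgka stood at 3.83 and 3.85 times Dgkz in WT, 2.57 and 2.38 times in ON, and 2.66 and 2.29 times in OFF. The kinase ratio was therefore nearly identical in both WT libraries and lower in the other 4, where ON and OFF overlapped. Cblb stood at 1.30 and 1.27 times Itch in WT, 1.25 and 1.46 times in ON, and 1.84 and 1.62 times in OFF.

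**Figure D3:**
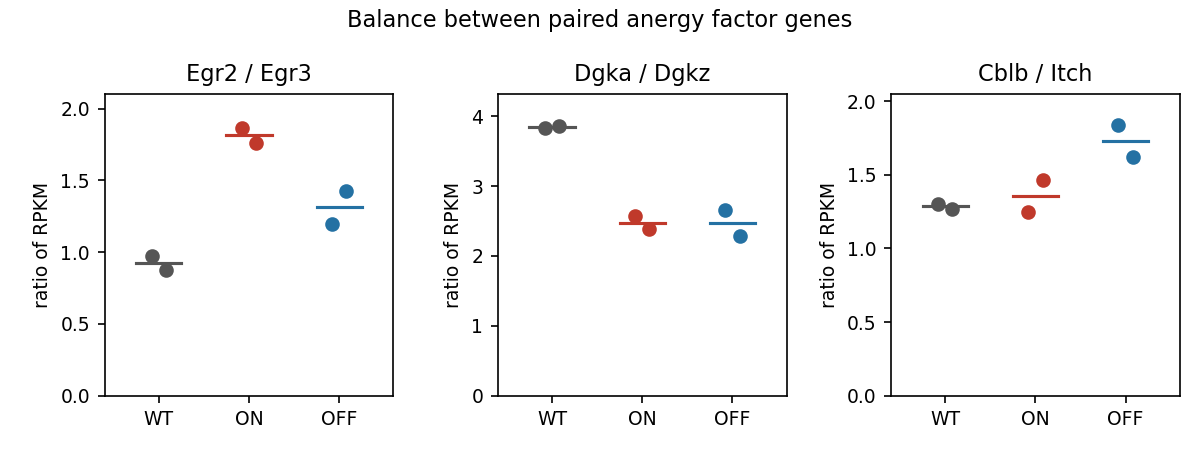
Ratio of RPKM (y axes, from 0) within 3 pairs of anergy factor genes, with 1 point per library and a line at the mean of 2. The Egr2 to Egr3 ratio is separate in all 3 groups, the Dgka to Dgkz ratio is near 3.84 in WT and near 2.48 in ON and OFF, and the Cblb to Itch ratio is highest in OFF.

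Of the EGR family and their NAB corepressors, 3 of 4 were tested. Egr1, the immediate early member, had a mean of 63.9 CPM (WT), 91.0 (ON) and 125.9 (OFF), and rose in OFF against WT (log2 fold change 0.98 ± 0.17, SE; edgeR adjusted p = 0.0101), a call lost without WT 1 (0.114) or WT 2 (0.0574). Nab1, the most abundant of this list per kilobase (23.5 to 31.5 RPKM), and Nab2 were called in no comparison. Egr4 had at most 0.12 CPM.

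Of 19 ubiquitin ligases of T cell tolerance with their adaptors and deubiquitinases, 18 were tested. Only 1 was called between OFF and ON, beside 1.03% of all tested genes. This was Dtx1, the Notch target that encodes Deltex 1 and the most abundant of the list. It was lower in OFF, at 195 and 145 CPM against 492 and 562 in ON (edgeR adjusted p = 0.00234). Against WT, ON had 3 higher (Dtx1, Ndfip1 and Otub1) and 2 lower (Rc3h1 and Nedd4l), beside 9.68% and 5.16% of all tested genes. OFF had 0 called by edgeR against WT, beside 6.83% of all tested genes. Between OFF and ON 10 of the 18 had an unadjusted edgeR p under 0.05, against 19.1% of all tested genes. For ON over WT 10 did, against 30.5%, and for OFF over WT 1 did, against 22.1%. Rc3h1, the gene of the RNA-binding protein Roquin-1, fell by 0.69 on the log2 scale from a mean of 175 to 109 CPM (edgeR adjusted p = 0.00427), and lost its call without WT 1 (0.0652) or WT 2 (0.0738). Ndfip1, an activator of Itch, went from 91.3 and 88.6 CPM in WT to 139 and 129 in ON (edgeR adjusted p = 0.0164, lost without WT 1 at 0.126 and WT 2 at 0.154). Nedd4l and Otub1 were likewise not called without WT 1 or WT 2 (adjusted p of 0.132 to 0.180), nor Otub1 without ON 2 (0.0537). The median of the list was -0.19 for ON over WT, -0.01 for OFF over WT and 0.07 for OFF over ON.

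Among the 8 other diacylglycerol kinases, 7 were tested and 1 was called, lower in ON against WT, beside 5.16% of all tested genes. Dgkh, of the eta kinase, fell by 1.21 on the log2 scale in ON against WT, from 10.6 and 9.36 CPM to 4.29 and 4.36 (edgeR adjusted p = 0.00646), a call lost without WT 1 (0.0798) or WT 2 (0.0579). In OFF it stood at 9.07 and 8.29 CPM, above both ON libraries (log2 fold change against ON 1.00, edgeR adjusted p = 0.0630). Dgkd was the most abundant of these kinases at 36.2 to 42.4 RPKM and was called in no comparison. Of 18 genes that carry the diacylglycerol signal, all tested, 0 were called by edgeR between OFF and ON. An unadjusted edgeR p under 0.05 was found for 5, against 19.1% of all tested genes. Against WT, 3 were higher (Map2k2 and Prkcd among them) and 2 lower (Braf and Sos1) in ON, beside 9.68% and 5.16% of all tested genes. In OFF 2 were higher than in WT, Prkca and Prkcd of the protein kinase C family, beside 4.70%. None of the 6 calls named here held without WT 1 or without WT 2 (adjusted p of 0.0840 to 0.322), those in ON were also lost without ON 2 (up to 0.0795), and those in OFF without OFF 1 or OFF 2 (up to 0.163). Prkcd in ON and Prkca in OFF were also lost with upper quartile scaling (0.0621 and 0.0513), Prkcd and Sos1 in ON without the filter (0.0725 and 0.0680), and Prkca in OFF with a mean of at least 1 CPM (0.0501). Rasgrp1, the Ras activator that binds diacylglycerol and the most abundant of them at 58.1 to 82.7 RPKM, was not called.

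Of 22 genes of calcium entry, calcineurin and NFAT, 20 were tested, and 0 were called by edgeR between OFF and ON or between OFF and WT. Between OFF and ON 6 had an unadjusted edgeR p under 0.05, against 19.1% of all tested genes. Between OFF and WT 3 did, against 22.1%, and between ON and WT 7 did, against 30.5%. Nfat5 and Rcan3 were lower in ON than in WT (log2 fold change -0.71 and -0.47, edgeR adjusted p = 0.0261 and 0.0434). Of all tested genes, 5.16% were called lower in that comparison. Nfat5 lost its call without WT 1, WT 2, ON 1 or ON 2 (adjusted p up to 0.230) and Rcan3 without WT 1, WT 2, ON 1, OFF 1 or OFF 2 (up to 0.321), and neither was called without the filter on low counts (0.0605 and 0.147). Nfatc2, the NFAT factor most tied to anergy, ranged from 135 to 174 CPM over the 6 libraries and was called in no comparison. Itpr3 was the most abundant of the list at 27.3 to 34.8 RPKM. Of the other NDRG genes, Ndrg3 lay between 111 and 169 CPM and, like Ndrg2, was not called.

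A broader list of 18 genes linked to anergy, which holds checkpoint receptors and markers of anergic cells, was examined in the same fits. In ON 10 of 18 were called higher and 3 lower than in WT, against 9.68% and 5.16% of all tested genes, with a median log2 fold change of 1.21. In OFF 11 were called higher than in WT, against 4.70% of all tested genes, with a median of 1.45. These include Tnfrsf9 and Nr4a1 in ON and Cd5 and Sema7a in OFF, which were not called without WT 2 (adjusted p of 0.0579 to 0.247), nor, but for Nr4a1, without WT 1 (0.0702 to 0.220). Cd5 and Sema7a were also lost without OFF 2 (0.239 and 0.126) and Sema7a without OFF 1 (0.0539). Both were lost with limma-voom (0.0586 and 0.0696), and Cd5 with upper quartile scaling (0.0779), a mean of at least 1 CPM (0.0762) and protein-coding genes only (0.0511). Lag3, an inhibitory receptor that binds MHC class II, was at 0.538 and 1.16 CPM (WT), 39.2 and 27.8 (ON) and 20.4 and 29.0 (OFF). It rose by 5.28 ± 0.35 in ON and 4.84 ± 0.36 in OFF on the log2 scale (SE; edgeR adjusted p = 5.23e-05 and 1.73e-04). Tigit, Pdcd1 and Nrp1 also rose in both, by 5.56, 3.59 and 2.56 in ON and by 4.48, 3.08 and 3.25 in OFF. The size of the change in Lag3 and Tigit rested on few WT counts (9 and 20 of Lag3, 6 and 21 of Tigit). Without WT 2 it was 5.96 in ON and 5.53 in OFF for Lag3, and 6.71 and 5.64 for Tigit, which stood at 4.95 and 3.87 without WT 1. Izumo1r, the folate receptor 4 gene that marks anergic CD4 cells, rose by 0.78 in ON and 1.12 in OFF, and its call in ON was lost without WT 2 (adjusted p = 0.137). Nt5e, of CD73, which is used with it as an anergy marker, was lower in ON (8.09 against 20.9 CPM, edgeR adjusted p = 0.0190, lost without WT 1 at 0.152) and at 11.2 CPM in OFF was not called. Ikzf1, the most abundant of the list at 93.3 to 132 RPKM, was called in no comparison.

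**Figure D4:**
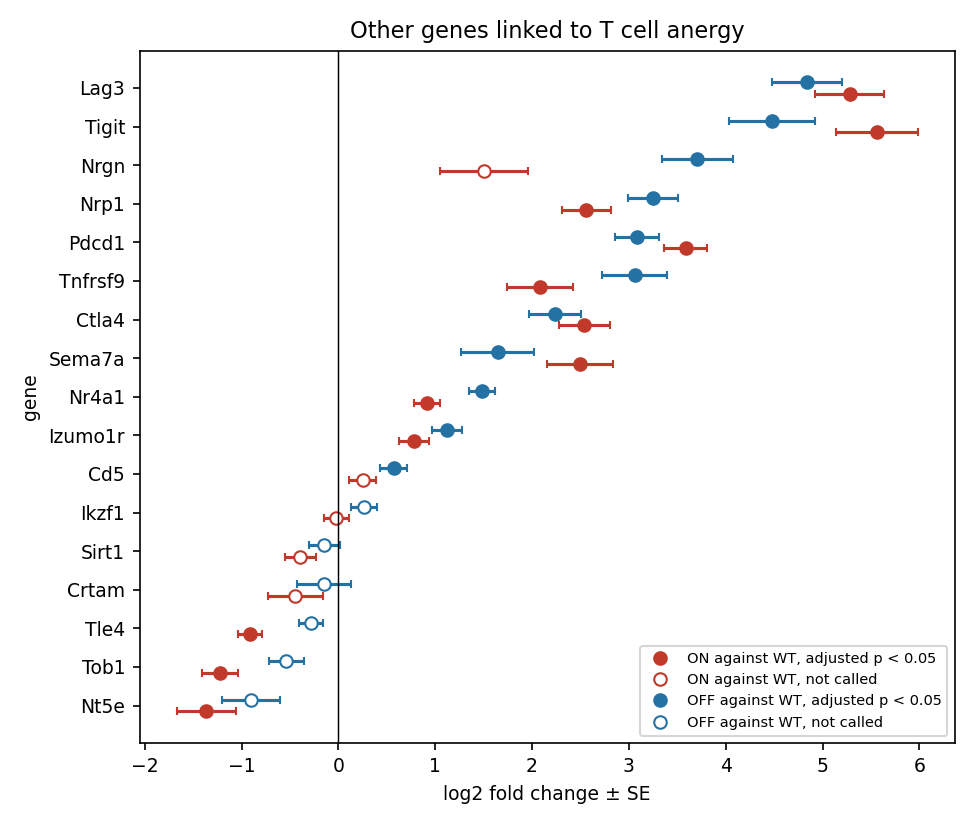
Log2 fold change with its SE (x axis) against WT of other genes linked to anergy (y axis), for ON (red) and OFF (blue). Filled points were called at an adjusted p under 0.05. Lag3 and Tigit lie farthest to the right. Nt5e, Tob1, Tle4, Sirt1 and Crtam lie left of 0 for both groups, and Ikzf1 for ON.

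Between OFF and ON 2 of these 18 were called, both higher in OFF, against 1.03% of all tested genes. The median log2 fold change was 0.31. Nrgn, which encodes neurogranin, a calmodulin-binding protein, stood at 1.14 and 0.581 CPM (WT), 2.71 and 2.18 (ON) and 9.36 and 13.2 (OFF). It rose 4.60-fold from ON to OFF (log2 fold change 2.20 ± 0.30, SE; edgeR adjusted p = 0.0106), and kept its call in every fit that left out a library (adjusted p up to 0.0288). Tle4, a corepressor gene, rose 1.55-fold (edgeR adjusted p = 0.0489), a call lost without each library except ON 1 (up to 0.210), and with other scalings, filters, limma-voom, no robust estimation or only the 4 libraries of ON and OFF (0.0501 to 0.130). Genes that full activation induces were a further list. Il2, the cytokine that anergic cells fail to make, was at most 0.462 CPM in every library and was not tested. The WT libraries had 5 and 1 counts, so the low Il2 level does not set ON or OFF apart from mature cells. Cd69, Myc and Tnf were called in no comparison. Of the 7 tested genes of that list, Il2ra, Ifng and Tfrc were higher and Cd40lg, the most abundant, lower in ON than in WT, and Il2ra and Ifng were higher in OFF than in WT. Of all tested genes, 9.68% were called higher and 5.16% lower in ON, and 4.70% higher in OFF. The calls of Tfrc and Cd40lg in ON did not hold when WT 1, WT 2 or ON 1 was left out (highest adjusted p 0.279), nor that of Ifng in OFF when WT 1, WT 2 or OFF 2 was (0.126). Tfrc was also not called by DESeq2 (0.0632), with upper quartile scaling (0.0715), without the filter (0.0639) or in the 4 libraries alone (0.0511), Cd40lg not without the filter (0.0991), and Ifng not by limma-voom (0.0785).

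Markers of other cells also differed from WT. Of all tested genes, 9.68% were called higher and 5.16% lower in ON against WT, and 4.70% higher in OFF against WT. The 6 regulatory T cell markers summed to 58.8 to 76.1 CPM (WT), 360 to 494 (ON) and 320 to 553 (OFF), although the gate was CD25-. All 6 were called higher in ON and 5 in OFF, and Foxp3, the defining gene, was at 2.45 and 2.67 CPM (WT), 38.0 and 30.8 (ON) and 36.6 and 78.7 (OFF). OFF 2, the library highest in Egr2, Egr3, Nfatc1 and Ndrg1, was also the highest in Foxp3, Ikzf2 and Il2ra. The rest of the marker list was highest in ON 1: Il2rb (227 CPM, against 153 in OFF 2), Ctla4 (34.8 against 27.8) and Tnfrsf18 (57.8 against 46.0). Il2ra and Ctla4 stand both in this marker list and in lists above. The 11 myeloid and dendritic markers summed to 20.1 to 21.7 CPM (WT), 59.5 to 66.7 (ON) and 66.4 to 76.3 (OFF), with 5 and 4 of 8 tested called higher in ON and OFF, and Xcr1 was at 0 in ON 1, ON 2 and OFF 1. The 10 B cell markers summed to 188 to 205 CPM (WT), 154 to 181 (ON) and 215 to 266 (OFF), mostly Ighm, with 4 higher and 1 lower in ON and 8 higher in OFF. The 4 NK cell markers summed to 6.10 to 9.63 CPM (WT), 43.8 to 71.6 (ON) and 42.1 to 49.6 (OFF), with Eomes at 5.41 to 7.42 (WT) and 41.4 to 70.8 (ON and OFF), while the defining Ncr1 and Klrb1c reached at most 1.32 CPM. The 2 CD8 markers summed to 13.8 to 23.7 CPM in all libraries, with Cd8a called higher in ON and OFF than in WT, and the 6 erythroid and platelet markers to 3.61 to 5.74. The part of these cells in the levels of Egr2, Egr3, Nfatc1, Ndrg1 and the checkpoint receptors was not tested.

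For Egr2, Cblb and Dgka the 3 protein-coding genes with the most similar profile over the 6 libraries were found among 8878 genes with a mean of at least 5 CPM over the libraries, by the root mean square difference of centred log2 CPM. Closest to Egr2 were Lrrk2 (0.090), Lrmp (0.11) and Ikzf4 (0.12), where Egr2 itself varied by 0.68 on that scale. Lrmp, for example, went from 43.8 and 40.8 CPM in WT to 91.3 and 90.4 in ON and 106 and 120.2 in OFF. Closest to Cblb, which varied by 0.19, were Serinc5 (0.032), Smim14 (0.037) and Slc25a12 (0.050). Closest to Dgka, which varied by 0.16, were Smurf1 (0.026), Pde4dip (0.030) and Ppp1r13b (0.033). Rnf128 was too low to be placed.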

How the data were processed

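RNA-seq of 6 sorted mouse T cell samples, 3 groups of 2, was used. The deposited values are raw counts of reads for each gene, with 1 column per library, aligned to GRCm38 per the labels' protocols. Tools named there by the submitters' processing notes are edgeR and R 3.6.2. The aligner, counter, annotation and use of strand are not given in the sources. Reads of overlapping genes on opposite strands may thus be counted together or dropped, and counts of the overlapping gene do not show dropped reads. The 5 summary rows of the count table, which hold 53.1% to 66.3% of the reads per library, were left out of library sizes and tests.

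Symbols, positions and exon lengths came from GENCODE M21 on GRCm38 (47310 of 47729 identifiers matched). Genes were kept by filterByExpr (minimum count 10, minimum total 15), scaled by TMM and tested with edgeR 4.0.16 in R 4.3.3 (glmQLFit, robust), with all 6 libraries in 1 fit and 3 residual degrees of freedom, adjusted by Benjamini-Hochberg over 15780 genes. Libraries of a group were not duplicates (chi-square over its degrees of freedom 9.50 for WT, 65.9 for ON, 17.8 for OFF). Intervals are 95% and come from the fit, and floors of 3 counts cover counting error only. Alternatives were other scalings, filters, thresholds and model settings, DESeq2 1.42.0, limma-voom (limma 3.58.1), fewer libraries or genes, and a replicate block. The steps were tested on simulated data. Depth was 17025551 to 19319183 gene counts per library.

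The members and lists were chosen with earlier results of these data known. Named genes were the 9 members, up to 4 called genes of smallest p and the most abundant gene of each pathway list, Rbpj, and the 3 closest profiles of Egr2, Cblb and Dgka (Rnf128, also in the rule, was too low). Other pathway and marker genes were named after their values were seen. A gene in each of 2 pathway lists is counted with its list but not reported here.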

Additional observations from a re-analysis of the deposited data

How the results depend on the processing

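With 2 libraries per group, counts of calls moved with single libraries. Between OFF and ON the count of members called was 0, but 1 with DESeq2 and 2 at an adjusted p under 0.1. Between ON and WT it was 2, but 1 with upper quartile scaling, without the filter, with protein-coding genes only and at an adjusted p under 0.01, and 3 with DESeq2 and at an adjusted p under 0.1. Between OFF and WT it was 4, but 2 at an adjusted p under 0.01, 3 with limma-voom and 5 at an adjusted p under 0.1. Leaving out 1 library gave 0 to 0 (OFF over ON), 0 to 3 (ON over WT; 0 without WT 2) and 1 to 5 (OFF over WT; 1 without WT 1 or WT 2). Single members reversed only between OFF and ON: Itch without ON 2 (-0.033, range over the 6 libraries up to 0.199), Dgka without OFF 1 (-0.033, up to 0.188) and Dgkz without ON 1 (-0.027, up to 0.196), with adjusted p of 0.924, 0.958 and 0.922. Why single libraries moved these results was not tested.

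All genes called numbered 162, 2342 and 1078 in these 3 comparisons. Leaving out 1 library gave 67 to 619, 368 to 2398 and 223 to 1601. DESeq2 called 497, 2357 and 1176, limma-voom 99, 1972 and 571, only the 4 libraries of each comparison 58, 2315 and 1466, and protein-coding genes alone 58, 2163 and 968. Upper quartile scaling shifted the median log2 fold change over all genes by -0.07 for ON over WT and -0.08 for OFF over WT. Of 49 calls of pathway genes, 23 held in every fit that left out a library and 26 were lost in at least 1.

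Deviations of same-numbered libraries from their group means correlated at -0.20 (OFF, ON), 0.08 (ON, WT) and -0.21 (OFF, WT), so same-numbered libraries did not deviate alike. These values cannot show whether libraries of different groups shared a batch, which was not tested. With the replicate block the members called were 0, 2 and 4, and Ndrg1 (adjusted p = 0.0384) took the place of Nfatc1 (0.105) between ON and WT. Genes called with the block numbered 60, 1441 and 663. With the OFF numbers crossed, chosen after seeing the data, the block called 2, 5 and 5 members and 1210, 3754 and 2083 genes.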
